A study of Mus musculus with 10 samples.

Results

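The genes described here encode the proteins that copy DNA and make its building blocks, in mouse T helper 2 (Th2) cultures with and without trichostatin A (TSA), embryonic stem (ES) cells, CD4 T cells and B cells. They were taken by symbol from a list of 42 genes in 9 roles, which named no measured value, and 41 of them were found among the 19025 genes of the RNA-seq files. Gins1, a subunit of the GINS complex, had no row under that symbol and is not analysed here. All 41 had at least 1 FPKM (fragments scaled to transcript length and to the library's total) in 2 or more libraries, the filter on low values, so all of them were tested. Expression is given in FPKM, which is already per transcript length, so levels of different genes are set side by side. Overlapping exons, pseudogenes and the way rows were filled limit this, as given below.

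Every group comprised 2 libraries and carried the C57BL/6 strain label, with no genetic modification named. The TSA group was splenic CD4 T cells held for 5 days in Th2 medium (15 ng/ml IL-2 and 10 ng/ml IL-4), with 10 nM TSA, an inhibitor of histone deacetylases, present from day 2 for the last 3 days. The Th2 group was the same culture without TSA. The ES group was 1 line, B6N-22, grown with LIF on a layer of mitomycin C-treated mouse embryonic fibroblasts. The CD4 T and B220 B cell groups were taken from spleens of mice 6 to 8 weeks old, sorted to over 98% purity. No age is given for the mice behind the cultures or the ES line, and nothing says whether a second library came from other animals or another culture. If not, the p-values below measure a technical spread.

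A cell licenses its replication origins in G1: the origin recognition complex (ORC), with CDC6 and CDT1, loads the ring-shaped MCM helicase onto DNA. In S phase CDC45 and GINS join the ring to unwind the helix, RPA coats the single strands, and the polymerases, held by the sliding clamp PCNA that the RFC complex loads, copy them. FEN1 and DNA ligase I finish the Okazaki fragments, while ribonucleotide reductase, thymidine kinase and thymidylate synthase supply the deoxynucleotides. Many of these genes are classical targets of the E2F transcription factors, which the retinoblastoma family holds back in resting cells; naive lymphocytes in the spleen are mostly at rest, and activated T cells and ES cells divide fast.

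Because E2F binding sites are a textbook feature of such promoters, the letters TTTCCCGC, TTTCGCGC, TTTGCCGC and TTTGGCGC were searched on both strands in the 250 bases before each RefSeq start (GRCm38.p6); their matches can overlap one another. Promoters were given for 35 of the 41 genes, 43 in all. Of these, 9 held a match (20.9%), against 1.86% of all 32851 promoters. The CCAAT box, CCAAT on either strand, was in 55.8% of the members' promoters and 33.8% of all. The stretches below show the match in capitals for the most changed member with a match in each role that had one, with Mcm6 added after its values were seen. They run 5′ to 3′ in the direction of transcription and are credited to RefSeq. Those of Orc1, Cdc6 and Pola1 lie inside the annotated gene, so the starts used there are not its outermost ones. The stretches lie, for Orc1 at chr4:108579381-108579453 (plus strand), Cdc6 at chr11:98907967-98908066 (plus strand), Mcm5 at chr8:75109314-75109413 (plus strand), Mcm6 at chr1:128359706-128359798 (minus strand), Gins3 at chr8:95633472-95633558 (plus strand), Pola1 at chrX:93632240-93632339 (minus strand) and Rfc3 at chr5:151651209-151651264 (minus strand).
Orc1: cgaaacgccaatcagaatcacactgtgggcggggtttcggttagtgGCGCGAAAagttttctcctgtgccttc
Cdc6: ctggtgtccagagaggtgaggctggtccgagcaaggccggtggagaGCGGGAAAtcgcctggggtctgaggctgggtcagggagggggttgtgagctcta
Mcm5: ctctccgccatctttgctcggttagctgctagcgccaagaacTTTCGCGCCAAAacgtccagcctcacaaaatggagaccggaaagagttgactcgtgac
Mcm6: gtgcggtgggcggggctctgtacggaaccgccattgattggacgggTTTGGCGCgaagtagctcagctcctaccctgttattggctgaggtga
Gins3: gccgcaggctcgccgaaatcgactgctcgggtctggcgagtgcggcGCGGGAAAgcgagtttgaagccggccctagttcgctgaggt
Pola1: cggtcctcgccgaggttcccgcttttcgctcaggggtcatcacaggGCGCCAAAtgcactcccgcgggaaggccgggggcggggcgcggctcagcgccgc
Rfc3: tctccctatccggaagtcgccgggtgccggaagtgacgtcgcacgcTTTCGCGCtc
In Mcm5 the capitals hold 2 overlapping matches, and Mcm6 had 3 matches in its 250 bases, of which 1 is printed. The Rfc3 match lies 2 bases before the RefSeq start used, that of Orc1 19 bases before its own and that of Cdc6 130 bases before its own. A match is a stretch of letters and no evidence of binding. The 9 genes with a match had a median log2 change of 2.09 between Th2 and CD4 T cells (from -0.80 to 2.92), and the 26 without had 1.54 (from -0.75 to 3.75). The gene with the highest value, Rrm2, was among those without, and Orc3, with the lowest, was among those with a match.

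The libraries of the ES, CD4 T and B groups were nearly repeats of each other. The SD of the log2 ratio between 2 libraries of a group, over genes at 10 FPKM or more, was 0.322 for TSA, 0.307 for Th2, 0.0417 for ES, 0.0458 for CD4 T and 0.0446 for B cells. Each ES, CD4 T and B pair was therefore averaged and counted as 1 sample, and only the TSA and Th2 groups have n = 2. Ribosomal protein genes took 22.1% and 22.6% of the summed FPKM in TSA, 17.1% and 18.8% in Th2, 12.1% in ES, 10.4% in CD4 T and 8.51% and 8.53% in B libraries; since FPKM values share 1 total, such a shift moves all other genes. Their part in the results below was not tested beyond the rescalings reported with them. The summed ES and B markers were highest in the cells so labelled, and the summed T markers in the TSA, Th2 and CD4 T libraries: the 7 ES markers summed to between 2499 and 2503 FPKM in ES libraries and to at most 2.48 elsewhere. Markers of other cells were found in places. The 7 B markers summed to 256 and 260 FPKM in the CD4 T libraries, against 4513 and 4511 in B libraries, and 7 myeloid markers stood at 326 FPKM in both CD4 T libraries. The summed Th2 markers were highest in Th2 libraries, but Il1rl1 of that list stood at 0.61 and 0.74 FPKM in Th2 and 25.7 and 24.6 in ES libraries. The 5 plasma cell markers, of which Prdm1, Irf4 and Xbp1 are known from activated T cells too, summed to 495 and 516 FPKM in TSA, 418 and 416 in Th2, 65.3 and 65.2 in ES, 74.8 and 73.0 in CD4 T and 274 and 279 in B libraries. Of 7 fibroblast markers the ES libraries held 769 and 778 FPKM, and no other library more than 6.72. The part of such cells in the levels below was not tested, and in bulk RNA fewer cells of a type cannot be told apart from less RNA per cell.

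The members fell into a high and a low set of libraries. Summed over the 41 genes they took 0.534% and 0.455% of all FPKM in the TSA libraries, 0.662% and 0.589% in Th2, 0.606% and 0.602% in ES, 0.210% and 0.209% in CD4 T and 0.237% in both B libraries. The median member stood at 39.7 and 37.9 FPKM in TSA, 44.5 and 43.0 in Th2, 50.0 and 49.9 in ES, 16.5 and 15.7 in CD4 T and 17.9 and 17.6 in B libraries. By group mean the highest level was in ES cells for 18 members, in Th2 for 14, in TSA for 6 and in B cells for 3 (Orc3, Pold1 and Rfc2). In no case was it in CD4 T cells.

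**Figure D1:**
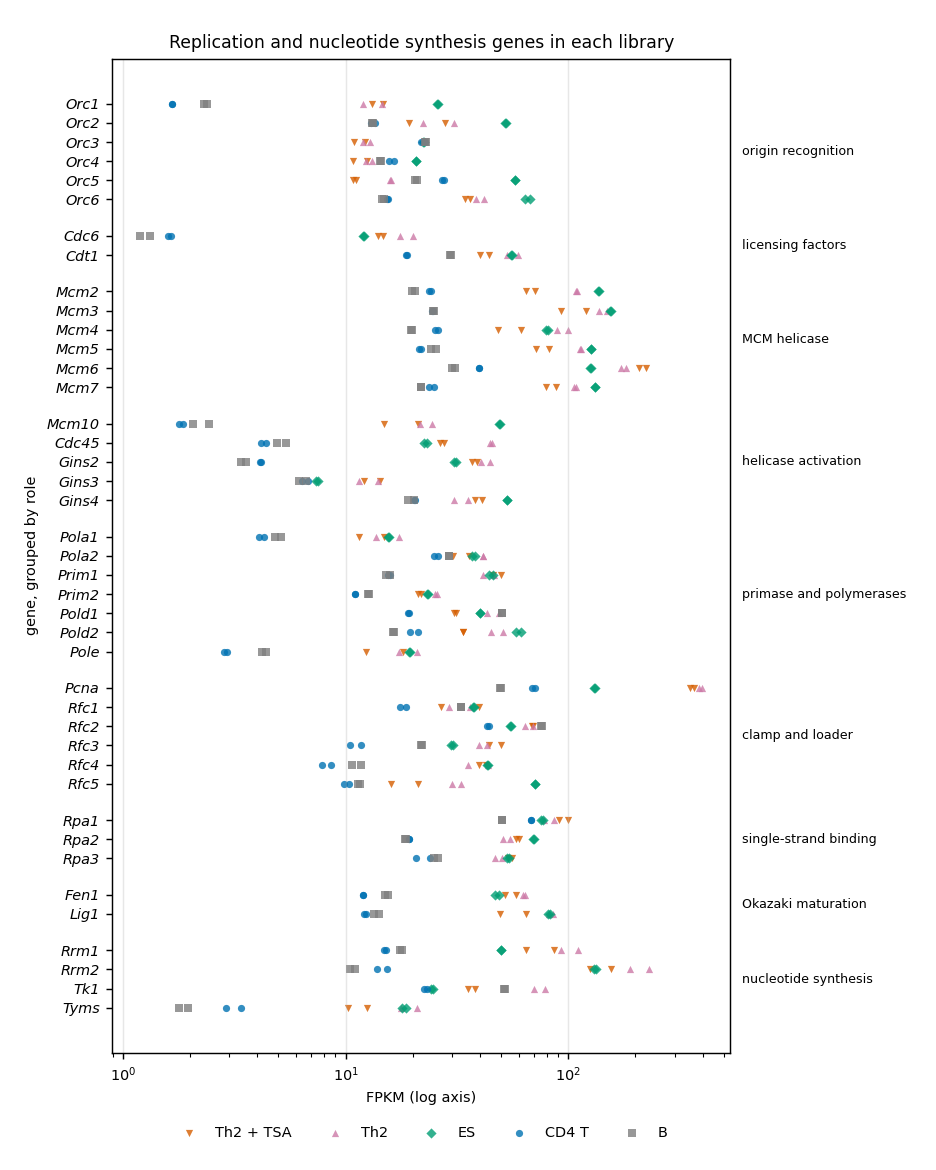
FPKM (log axis) of each of the 41 genes in each of the 10 libraries, grouped by role, with 1 symbol per library and colours for the groups. For most genes the CD4 T and B libraries lie to the left of the others, while Orc3, Orc4 and Orc5 in ORC do not follow that order.

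Th2 cultures were set against CD4 T cells, the cells they start from. Of the 41 members 35 were higher in Th2 cells (85.4%) and 2 were lower (Orc3 and Orc5, 4.88%), by limma on log2(FPKM + 1) with an adjusted p below 0.05 over all genes tested; among all genes 16.9% were called higher and 38.1% lower. Orc2, Orc4, Rfc1 and Rpa1 were not called. The members' median log2 change was 1.66, beside -0.28 over all genes. After median-ratio scaling these medians were 2.03 and -0.03, with 23.2% of all genes called higher and 27.7% lower, and after quantile normalization they were 1.87 and 0, with 26.2% and 26.7%. The fit takes the lone CD4 T sample to vary as the Th2 groups do. For members with 2 rows in the files, the Th2 files repeated the same value, while the CD4 T files did not. This difference between the files goes with the comparison, and its part in the changes was not tested. In each of 11 other settings 27 of the 35 were called again.

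Within ORC the subunits split. Orc1, the gene of the subunit whose level changes with the cell cycle in mammals, had 14.6 and 11.97 FPKM in Th2 and 1.67 in both CD4 T libraries, a log2 change of 2.41 ± 0.18 (SE; limma adjusted p = 0.00471). Orc6, the subunit that joins the ring of the others, was higher as well, by 1.33 ± 0.096 (limma adjusted p = 0.00453). Orc3, part of the core, had 12.9 and 11.9 FPKM in Th2 and 22.8 and 21.8 in CD4 T libraries (-0.80 ± 0.12, limma adjusted p = 0.0168). Orc5 had 15.9 and 15.8 FPKM in Th2 and 27.0 and 27.5 in CD4 T libraries (-0.75 ± 0.078, limma adjusted p = 0.00815). Orc3 also stood near its CD4 T level in the other groups outside the cultures, at 22.3 and 22.4 FPKM in ES and 22.6 and 22.9 in B libraries. Orc5 stood at 57.5 and 57.6 FPKM in ES and 21.0 and 20.6 in B libraries. Both genes were below the CD4 T cells in each Th2 library. Orc5 was still lower after both scalings (-0.39 and -0.45, limma adjusted p = 0.0329 and 0.0251), whereas the Orc3 call was lost (-0.44 and -0.45, limma adjusted p = 0.0627 and 0.0508), and with either Th2 library left out the changes were -0.74 to -0.85 for Orc3 and -0.74 to -0.76 for Orc5, without a call in fits of fewer samples that called 18.2% to 19.3% of all genes lower (limma adjusted p from 0.0634 to 0.0901). Orc4 stood at 13.1 and 12.4 FPKM in Th2 against 16.5 and 15.7 in CD4 T cells (-0.32, and 0.04 and 0.07 after the scalings). Orc2, whose exons share 29.8% of their bases with Nif3l1 on the other strand, stood at 30.8 and 22.3 FPKM in Th2 against 13.6 and 13.0. The summed level of the 6 subunits was 129.3 and 112.7 FPKM in Th2 and 97.1 and 95 in CD4 T libraries.

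The licensing factors and all helicase genes rose. Cdc6, the ATPase that helps ORC load the ring, had 20.1 and 17.5 FPKM in Th2 and 1.59 and 1.65 in CD4 T libraries, 11.6-fold on the group means (log2 change 2.92 ± 0.14, limma adjusted p = 0.00252). Cdt1, its loading partner, was 3.00-fold higher. All 6 genes of the MCM2-7 ring passed the test, with log2 changes from 1.84 (Mcm4) to 2.50 (Mcm3), and their summed level was 758.2 and 729.5 FPKM in Th2 against 159.7 and 159.6 in CD4 T cells. Mcm3 had 148.6 and 137.7 FPKM in Th2 and 24.3 and 24.6 in CD4 T libraries (limma adjusted p = 0.00513). No Th2 library came near a CD4 T library for any of the 6.

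Among the factors that switch the helicase on the changes were larger still, by 3.08 for Mcm10, 3.12 for Cdc45 and 3.07 for Gins2 on the log2 scale. Cdc45, the partner of the ring in the active helicase, had 44.5 and 45.5 FPKM in Th2 and 4.19 and 4.38 in CD4 T libraries (SE 0.082, limma adjusted p = 0.000996). Mcm10, a scaffold needed to start unwinding, had 24.3 and 21.5 FPKM in Th2 and 1.78 and 1.87 in CD4 T libraries (SE 0.26, limma adjusted p = 0.00576). The GINS genes differed in size of change: Gins2 was 10.2-fold higher on the group means, Gins3 1.93-fold and Gins4 1.62-fold. Gins2 is uncertain, as 67.3% of its exon bases overlap Gse1 on the other strand and the kit named in the labels does not keep strand.

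The polymerase genes rose by less. Their 7 log2 changes ran from 0.68 (Pola2) to 2.37 (Pole), with a median of 1.21. Pole, the catalytic subunit of the leading-strand polymerase, had 21.0 and 17.4 FPKM in Th2 and 2.93 and 2.85 in CD4 T libraries (SE 0.30, limma adjusted p = 0.0117). Pola1, which with primase starts each new strand, had 17.4 and 13.6 FPKM in Th2 against 4.30 and 4.10 (1.66 ± 0.25, limma adjusted p = 0.0163). Prim1, the catalytic subunit of primase, was 2.80-fold higher and Pold1, that of polymerase delta, 2.39-fold.

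Pcna had the highest level of all members, with 387 and 398 FPKM in Th2 and 68.4 and 71.0 in CD4 T libraries (2.48 ± 0.079, limma adjusted p = 0.00134). By name the annotation holds 2 processed pseudogenes of Pcna and 1 of Tyms, and copies under other names were not sought. How reads that fit a gene and its pseudogene were counted is not given in the sources used here. Of the clamp loader, Rfc4 changed most, with 43.5 and 35.5 FPKM in Th2 and 8.63 and 7.80 in CD4 T libraries (2.13 ± 0.16, limma adjusted p = 0.00491), and Rfc2 least among those called, by 0.59 ± 0.086 (limma adjusted p = 0.0151). Exons of neighbours on the other strand cover 12.7% of Rfc4, 10.7% of Rfc5 and 10.8% of Orc1, so these values carry some doubt as well. Rpa2 and Rpa3, the small subunits of RPA, rose by 1.41 and 1.09. Rpa1, the large subunit, had 86.4 and 77.5 FPKM in Th2 and 68.2 and 68.3 in CD4 T libraries and was not called (0.26 ± 0.11, limma adjusted p = 0.148).

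Okazaki fragment maturation and nucleotide supply rose too. Lig1, DNA ligase I, had 85.1 and 81.5 FPKM in Th2 and 12.1 and 12.4 in CD4 T libraries (2.67 ± 0.20, limma adjusted p = 0.00491). Fen1, the flap endonuclease, was 5.28-fold higher, but 78.8% of its exon bases overlap an antisense gene model, Gm10143. Rrm2, the small subunit that limits ribonucleotide reductase, changed most of all members: it had 231 and 189.5 FPKM in Th2 and 15.3 and 13.9 in CD4 T libraries, a log2 change of 3.75 ± 0.21 (limma adjusted p = 0.00318). Its partner Rrm1 was 6.72-fold higher, Tyms, which makes dTMP from dUMP, 6.13-fold, and Tk1, the cytosolic thymidine kinase, 3.25-fold.

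**Figure D2:**
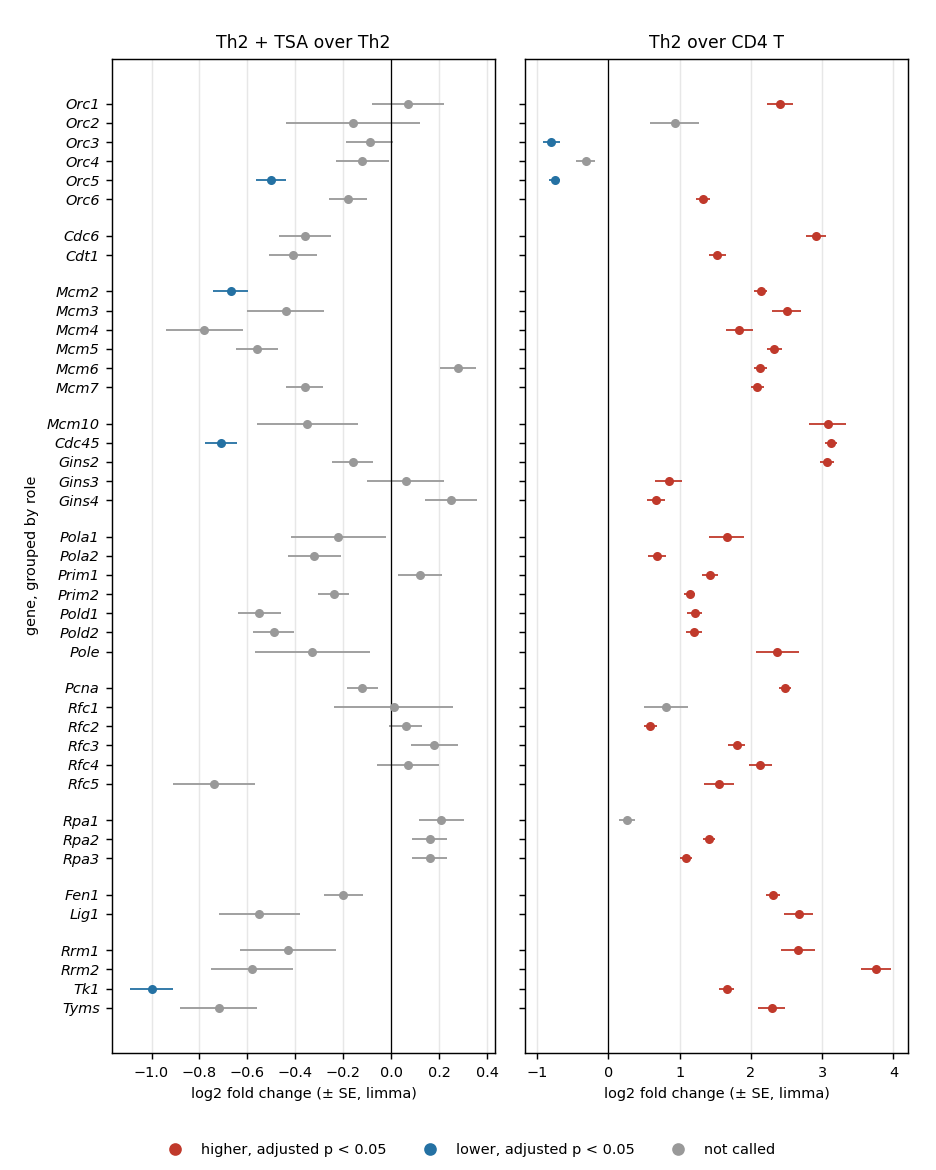
Log2 fold changes of the 41 genes with their standard errors (limma), TSA over Th2 on the left and Th2 over CD4 T on the right, with called genes in colour; the 2 panels share the Th2 samples and have different horizontal scales. On the right 35 genes are called higher and 2 lower, and on the left 4 are called lower and none higher.

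Other genes of the pathway were counted from fixed lists. Of 34 further replication genes 22 were higher in Th2 than in CD4 T cells (64.7%) and 1 lower (2.94%), beside the 16.9% and 38.1% of all genes given above, with a median of 1.26. The largest were Uhrf1, which brings maintenance methylation to new DNA (3.33 ± 0.29), and the histone chaperone genes Asf1b (3.09 ± 0.070) and Chaf1a (2.96 ± 0.094), with limma adjusted p of 0.00611, 0.000825 and 0.00134. The lower one was Mcm9, an MCM-like gene known from recombination repair and not from the replicative ring, at 4.11 and 3.10 FPKM in Th2 and 18.9 and 19.0 in CD4 T libraries (limma adjusted p = 0.00995). Mcm9 stood at 5.09 and 3.82 FPKM in TSA, 22.2 and 20.7 in ES and 19.4 and 19.6 in B libraries. Only the cultures were thus low, and the part of the file difference in this was not tested.

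Of 26 further nucleotide metabolism genes 13 were higher (50%) and 4 lower (15.4%, below the 38.1% of all genes), with a median of 0.90. Dctpp1, a dCTP pyrophosphatase gene, stood at 103 and 118 FPKM in Th2 and 14.4 and 12.5 in CD4 T libraries (2.95 ± 0.18, limma adjusted p = 0.00359), and Impdh2, of guanine nucleotide synthesis, rose by 2.58. The 4 lower ones were Rrm2b, the reductase subunit known from cells outside S phase, Tk2 and Dguok, the mitochondrial deoxynucleoside kinases, and Samhd1, which breaks down dNTPs. Tk2 had 10.5 and 12.4 FPKM in Th2 and 50.4 and 50.0 in CD4 T libraries (-2.05 ± 0.15, limma adjusted p = 0.00449). In the same libraries Tk1 was 70.2 and 78.5 FPKM in Th2 and 23.1 and 22.6 in CD4 T cells, so the order of the cytosolic and the mitochondrial gene differed between the groups.

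Among 13 E2F and pocket protein genes 8 were higher (61.5%) and 2 lower (15.4%), against 16.9% and 38.1% of all genes, with a median of 0.80. E2f8, a repressor of the family, rose by 2.78 ± 0.16, and Tfdp1, the dimer partner, by 2.38 ± 0.25 (limma adjusted p = 0.00336 and 0.00855). The lower ones were E2f5 and Rb1, the retinoblastoma gene, with Rb1 at 16.9 and 16.4 FPKM in Th2 and 35.7 and 34.8 in CD4 T libraries (-1.04 ± 0.12, limma adjusted p = 0.0095).

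**Figure D3:**
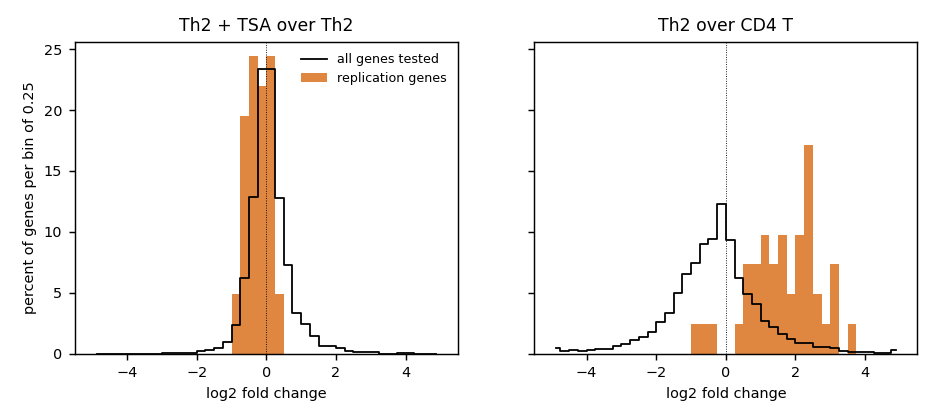
Distribution of log2 fold changes in bins of 0.25, as the percentage of genes per bin, for all genes tested (line) and the 41 replication genes (bars), TSA over Th2 on the left and Th2 over CD4 T on the right; the outermost bins also hold the more extreme values. The bars' median is 1.66 on the right, where that of all genes is -0.28, and -0.24 on the left, where that of all genes is 0.02.

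TSA-treated cultures were then set against untreated Th2 cultures. By the same test 4 members were lower with TSA (Orc5, Mcm2, Cdc45 and Tk1, 9.76%) and 0 higher, where 4.14% of all genes were called lower and 9.26% higher. Before adjustment for the number of genes limma put 16 members (39%) as lower and 1 (Mcm6, 2.44%) as higher at a p under 0.05, where 14.4% of all genes were lower and 22.5% higher. The members' median log2 change was -0.24, beside 0.02 over all genes. For 24 members (58.5%) both TSA libraries lay below both Th2 libraries, and for 6 (14.6%) both lay above, where among all genes 27.1% lay below and 36.7% above; 11 members overlapped. With any 1 of the 4 libraries left out the fit called at most 0.108% of all genes lower and none of the 4 members (limma adjusted p from 0.0833 to 0.227), so that these refits say little of single genes; the log2 changes were then -0.92 to -1.08 for Tk1, -0.61 to -0.74 for Mcm2, -0.68 to -0.75 for Cdc45 and -0.48 to -0.52 for Orc5. With no filter on low values 0.384% of all genes and, of the members, Cdc45 were called lower, while the changes of Mcm2, Tk1 and Orc5 were the same (limma adjusted p = 0.0594, 0.0569 and 0.0558). Markers moved in this comparison too, and their part in it was not tested. The 5 Th2 markers summed to 129 and 143 FPKM in TSA and 202 and 249.7 in Th2 libraries, with 3 called lower. The 7 B markers summed to 14.5 and 39.7 FPKM in TSA and 4.39 and 6.44 in Th2 libraries, with 1 called higher. Of the 5 plasma cell markers 1 was called higher.

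Tk1 fell furthest, with 37.97 and 35.4 FPKM in TSA and 70.2 and 78.5 in Th2 libraries (-1.0 ± 0.091, limma adjusted p = 0.0324). Cdc45 had 27.6 and 26.4 FPKM in TSA and 44.5 and 45.5 in Th2 libraries (-0.71 ± 0.067, limma adjusted p = 0.033). Orc5 had 11.1 and 10.8 FPKM in TSA and 15.9 and 15.8 in Th2 libraries (-0.50 ± 0.063, limma adjusted p = 0.0402). None of the 3 overlapped between the groups, where for 27.1% of all genes both TSA libraries lay below both Th2 libraries. The other nucleotide genes were below Th2 in both libraries without a call: Rrm2 had 156 and 126 FPKM in TSA against 231 and 189.5, Tyms 12.5 and 10.2 against 20.8 and 17.7, and Rrm1 86.5 and 64.7 against 110.2 and 92.3, with log2 changes of -0.58 ± 0.17, -0.72 ± 0.16 and -0.43 ± 0.20 (limma adjusted p = 0.124, 0.0783 and 0.231). Licensing genes stood likewise, at 14.8 and 14.0 FPKM against 20.1 and 17.5 for Cdc6 and 40.1 and 44.0 against 52.9 and 59.6 for Cdt1.

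The genes of the MCM2-7 ring did not all lie on the same side of Th2. Mcm2 had 71.1 and 64.7 FPKM in TSA and 109 in both Th2 libraries (-0.67 ± 0.074, limma adjusted p = 0.0354). Mcm3, Mcm4, Mcm5 and Mcm7 were below Th2 in both TSA libraries without a call, with log2 changes from -0.36 to -0.78 and limma adjusted p from 0.0506 to 0.164. Mcm6 alone of the ring stood above Th2, at 224 and 208 FPKM in TSA and 182 and 172 in Th2 libraries, and was not called (0.28 ± 0.075, limma adjusted p = 0.099). Each of the 6 kept its side after both scalings, Mcm6 at 0.20 and 0.25. Its level over the median of the other 5 was 2.74 and 2.89 in TSA, 1.67 and 1.58 in Th2, 0.959 and 0.946 in ES, 1.63 and 1.68 in CD4 T and 1.41 and 1.39 in B libraries. A ratio of genes within 1 library does not depend on that library's total; the difference of the ratio between TSA and Th2 was not tested.

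**Figure D4:**
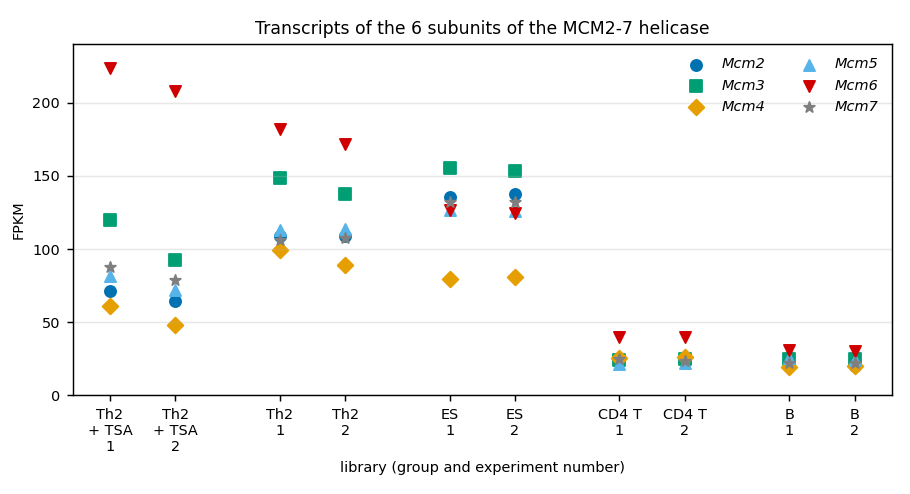
FPKM of the 6 MCM2-7 genes in each of the 10 libraries, with 1 symbol per gene. In the TSA libraries Mcm6 lies at 224 and 208 FPKM while the other 5 lie between 48.2 and 119.6, and in the ES libraries Mcm6 lies within the range of the others.

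The 3 RPA genes lay on the other side, without a call. Rpa1 had 99.3 and 91.1 FPKM in TSA and 86.4 and 77.5 in Th2 libraries, Rpa2 60.2 and 58.0 against 54.9 and 50.7, and Rpa3 53.4 and 55.9 against 46.9 and 50.6. For each both TSA libraries lay above both Th2 libraries, as they did for 36.7% of all genes. The log2 changes were 0.16 to 0.21, and 0.08 to 0.29 after the scalings (limma adjusted p from 0.211 to 0.217 without scaling). In the clamp loader Rfc5 stood at 21.1 and 16.1 FPKM in TSA and 33.1 and 29.99 in Th2 libraries (-0.74 ± 0.17, limma adjusted p = 0.0813), whereas Rfc3 stood at 49.6 and 44.1 against 39.5 and 43.0. Pcna was at 368 and 353 FPKM in TSA against 387 and 398 in Th2 cells. The catalytic and second subunits of polymerase delta, Pold1 and Pold2, were below Th2 in both TSA libraries by -0.55 ± 0.089 and -0.49 ± 0.086 (limma adjusted p = 0.0519 and 0.0567). After median-ratio scaling these 2 and Mcm5 were called lower as well (-0.63, -0.58 and -0.64).

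Outside the members 1 gene of the replication list passed in each direction (2.94%). Of the nucleotide list 1 was higher (3.85%), and of the E2F list 1 (7.69%). Among all genes 9.26% were higher and 4.14% lower, and counts of 1 in such short lists cannot be told from these shares. Of the 34 replication genes Rnaseh2a, a subunit of RNase H2, rose by 0.66 ± 0.076 and Pole4, a small subunit of polymerase epsilon, fell by 0.70 on the log2 scale (limma adjusted p = 0.0366 and 0.036). Of the 26 nucleotide genes Samhd1 alone was called, at 249 and 245 FPKM in TSA and 70.3 and 60.7 in Th2 libraries (1.90 ± 0.099, limma adjusted p = 0.0255). Its levels were 15.5 and 15.4 FPKM in ES, 200.1 and 198.5 in CD4 T and 236 and 235 in B libraries, so both TSA libraries stood above the CD4 T and B libraries as well. Of the 13 E2F and pocket genes Rb1 alone was called, at 26.5 and 30.4 FPKM in TSA and 16.9 and 16.4 in Th2 libraries (0.74 ± 0.097, limma adjusted p = 0.0411).

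Th2 cultures and ES cells, both cultured, were then compared. Of the 41 members 8 were higher in Th2 cells (19.5%) and 9 lower (22.0%), where 19.0% of all genes were called higher and 43.1% lower. The members' median log2 change was -0.02, beside -0.41 over all genes. As with CD4 T cells, the Th2 and ES files differ in how rows of a gene were filled, and the part of this was not tested. This comparison moves with the scaling: after median-ratio scaling 16 members were higher and 1 lower, with members' and all-gene medians of 0.40 and -0.06 and 26.7% of all genes called higher and 31% lower; after quantile normalization 12 were higher and 7 lower, with medians of 0.12 and -0.02 and 30% and 31% of all genes. Without any 1 of the 4 TSA and Th2 libraries 3 were higher, and 1 to 6 were lower, where the fits called 11.6% to 15.4% of all genes higher and 26.3% to 37.1% lower. Pcna, Tk1 and Cdc45 (higher) and Orc5 (lower) were called in each of 11 other settings.

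Pcna had 387 and 398 FPKM in Th2 and 132 and 131 in ES libraries (1.57 ± 0.079, limma adjusted p = 0.00141). Tk1 had 70.2 and 78.5 FPKM in Th2 and 24.6 and 24.1 in ES libraries (1.57 ± 0.11, limma adjusted p = 0.00284). Cdc45 had 44.5 and 45.5 FPKM in Th2 against 23.3 and 22.5 in ES libraries (0.94 ± 0.082, limma adjusted p = 0.00442). Orc5 had 15.9 and 15.8 FPKM in Th2 and 57.5 and 57.6 in ES libraries (-1.80 ± 0.078, limma adjusted p = 0.00102). The ORC genes were the role that lay lowest in Th2, all 6 below ES with 5 called, and their sum was 129.3 and 112.7 FPKM in Th2 against 246 and 243 in ES libraries; after median-ratio scaling Orc5 was the only one called. Mcm10 stood at 24.3 and 21.5 FPKM in Th2 and 49.3 and 49.0 in ES libraries, and Rfc5 at 33.1 and 29.99 against 70.9 and 70.5 (-1.07 ± 0.26 and -1.14 ± 0.21, limma adjusted p = 0.0406 and 0.0213). None of the 7 polymerase and primase genes was called by limma, nor had any an unadjusted p below 0.05, with log2 changes between -0.31 and 0.19; after median-ratio scaling Pola2, Prim2 and Pold1 were called higher.

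ES, CD4 T and B cells have 1 averaged sample each, so these comparisons have no test, and genes were taken by size (a log2 change of 2 or more, with 5 FPKM or more where the gene was higher). Of the 41 members 16 passed upward in ES against CD4 T cells (39.0%) and none downward, where 11.9% of all genes passed upward and 10.8% downward; the medians were 1.66 for members and 0.16 for all genes. In ES against B cells 14 passed upward (34.1%) and none downward, where 13.4% and 9.45% of all genes did, with medians of 1.80 and 0.30. Mcm10 differed most, with 49.3 and 49.0 FPKM in ES, 1.78 and 1.87 in CD4 T and 2.44 and 2.07 in B libraries (log2 change 4.15 and 3.94). Orc1 followed in CD4 T cells, at 26.0 and 25.8 FPKM in ES, 1.67 in both CD4 T and 2.32 and 2.39 in B libraries. Rrm2 had 133 and 131 FPKM in ES, 15.3 and 13.9 in CD4 T and 11.0 and 10.4 in B libraries. Orc3 was level, at 22.3 and 22.4 FPKM in ES, 22.8 and 21.8 in CD4 T and 22.6 and 22.9 in B libraries. Gins3 was nearly so, at 7.54 and 7.33 against 6.79 and 6.37 and against 6.17 and 6.63. In ES against B cells 37 members had a positive change. Tk1 (-1.05), Rfc2 (-0.45), Pold1 (-0.32) and Orc3 (-0.02) had a negative one.

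Between CD4 T and B cells no member passed the size rule. Only 2.56% of all genes passed upward and 1.7% downward, so this lies near the share over all genes. The medians were -0.03 for members and 0.05 for all genes. The largest differences were all toward B cells. Pold1 had 19.3 and 19.2 FPKM in CD4 T and 50.2 and 50.3 in B libraries (-1.34), and Tk1 had 23.1 and 22.6 in CD4 T and 52.0 and 51.4 in B libraries (-1.14). The clamp loader genes Rfc1, Rfc2 and Rfc3 were lower in CD4 T cells by 0.83, 0.78 and 0.92 on the log2 scale, with Rfc3 at 11.8 and 10.4 FPKM in CD4 T and 21.8 and 22.0 in B libraries, and 15.1% of the Rfc2 exon bases overlap Lat2 on the other strand. For comparison, Tk1 was at 24.6 and 24.1 FPKM in ES libraries, below the B libraries, while Cdc6 was at 1.32 and 1.20 FPKM and Tyms at 1.79 and 1.96 in the same B libraries.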

How the data were processed

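Libraries were made with the TruSeq RNA Sample Prep Kit v2 from TRIzol-extracted RNA, per the labels' protocols. Bowtie 0.12.8, TopHat 1.3.2 and Cufflinks 2.0.2 are listed with build mm10, per the submitters' processing notes. The authors deposited FPKM in 21035 rows (19025 genes), and a gene's value was its highest row. This mattered for 3 members with 2 rows (Cdc6, Lig1 and Orc2), and only in ES, CD4 T and B libraries. There the 2 rows differed, as for Lig1 at 81.4 and 76.9 FPKM in ES library 1. In the TSA and Th2 libraries both rows held the same value, 85.1 FPKM for Lig1 in Th2 library 1. The part of this difference in the comparisons of Th2 with CD4 T and ES cells was not tested. Whether the values of members with 1 row were made alike in both kinds of file is not known. FPKM keeps no read counts, so the libraries' depth is unknown and counting error could not be estimated. Grouping followed the sample titles. The planned fit counted near-identical libraries as 1 sample, which left 7 samples, with limma 3.58.1 (R 4.3.3) on log2(FPKM + 1), a trend in the prior spread and 2 residual degrees of freedom. Tests were two-sided, adjusted by Benjamini-Hochberg, over the 12907 genes that reached 1 FPKM in 2 or more libraries, or 12367 for Th2 against ES or CD4 T cells, after leaving out 540 genes at 0 throughout the Th2 files or throughout the others. Fold changes understate low genes. The fit was run on simulated data with independent samples and the same spread for every gene and sample. That run checks the code and cannot show how well the p-values hold for these libraries. Members, roles, lists and motifs were chosen with earlier results of these data known. Named are all members; in other lists, up to 4 of the largest changes each way.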

Additional observations from a re-analysis of the deposited data

How the results depend on the processing

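The 3 tested comparisons were refitted in 11 other settings, and the size rule in 7. Other than those given here, counts of members stayed within 1.5 times. With TSA against Th2, 1 member was lower with no filter on low values (0.384% of all genes), 7 after median-ratio scaling (5.71%), and 21, with 4 higher, when all 10 libraries were taken as separate samples (22.3% lower and 30.2% higher over all genes). Leaving out 1 library gave 0 to 0 lower in fits that called 0% to 0.108% of all genes lower, which says nothing particular to the members. With Th2 against CD4 T cells, both scalings left 1 lower (27.7% and 26.7% of all genes), and leaving out 1 library gave 0 to 2 lower and 27 to 32 higher (18.2% to 31.1% and 7.62% to 12.7%). With Th2 against ES cells, median-ratio scaling gave 16 higher and 1 lower (26.7% and 31% of all genes), 10 separate libraries gave 14 higher (27.8%), and leaving out 1 library gave 3 to 3 higher and 1 to 6 lower (11.6% to 15.4% and 26.3% to 37.1%). The members' median of -0.02 there turned to 0.40 and 0.12 after median-ratio and quantile scaling and ranged from -0.08 to 0.06 with a library left out, and Rpa2 turned to 0.05 after median-ratio scaling (limma adjusted p = 0.663). The cause was not tested, apart from the smaller number of samples where a library was left out. With the experiment number as a replicate block, 8 members were lower with TSA than in Th2 (Orc5, Cdt1, Mcm2, Mcm4, Cdc45, Rrm2, Tk1 and Tyms; 5.12% of all genes), 38 were higher and 2 lower in Th2 than in CD4 T cells (21.5% and 43.5%), and 9 were higher and 10 lower in Th2 than in ES cells (22.9% and 48.9%). Deviations of same-numbered TSA and Th2 libraries correlated at 0.65 over 7761 genes, with only 2 pairs and no label that ties the numbers to a shared culture, so the block is given here alone. FPKM without read numbers limits the precision of low members such as Orc1 and Cdc6 in CD4 T and B libraries.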
